A study of Bos taurus with 5 samples.

Results

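POLB encodes DNA polymerase beta, and its expression was followed here together with that of the genes whose levels moved with it across 5 muscles. All rows named POLB in the deposited table were taken, which gave 1 gene with 2 transcripts out of 9022 genes and 13391 transcripts. The samples were total RNA of longissimus dorsi, a back muscle, taken from 5 Jiaxian Red cattle at 18 months of age, with 1 library per animal and no other treatment or genotype named. The 5 libraries formed 1 group, which allows no contrast of conditions, and the primary myocytes that the title names were not analysed here. Expression was given as FPKM, a fragment count set relative to transcript length and to the size of the library, and was summed over the listed transcripts of each gene.

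DNA polymerase beta fills the short gaps that arise in base excision repair. A glycosylase removes a damaged base, an endonuclease cuts at the abasic site, the polymerase trims the 5′ end and inserts the missing nucleotide, and a ligase seals the strand. Skeletal muscle fibres do not divide, and this pathway handles much of the oxidative damage to their nuclear DNA.

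The libraries differed in total in a way that bears on every comparison below. Summed FPKM was 193706 for library 1, 204180 for 2, 205770 for 5, 208505 for 3 and 223251 for 4, which is the order of libraries of POLB itself. The read depth is unknown, as the table holds no counts. Libraries 1 and 4 lay farthest from the rest, with a median absolute deviation of a gene from its own mean of 0.21 and 0.20 on the log2(FPKM + 1) scale, against 0.14 to 0.16 in libraries 2, 3 and 5. Markers of muscle fibres dominated, as the tissue label states. The 7 listed markers of 8 summed to between 17751 FPKM in library 1 and 21051 in library 4. The members differed: TNNC1, TPM2, MYBPC1 and MB were higher in library 4 than in library 1, and MYH7 was nearly equal. ACTA1 and CKM were lower there, CKM at 9.67 FPKM against 35.5.

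POLB was listed in all 5 muscles, lowest in library 1 and highest in libraries 3 and 4. Its values, libraries 1 to 5 in turn, were 8.49, 14.4, 19.6, 20.3 and 15.1 FPKM, with a mean of 15.6 ± 4.74 (SD, n = 5). Libraries 2 and 5 differed by a factor of 1.05 and libraries 3 and 4 by 1.03, so the 5 values formed 3 steps, library 1, then libraries 2 and 5, then libraries 3 and 4. The step from library 1 to library 2 was 1.69-fold and that from library 5 to library 3 was 1.3-fold. Without library 1 the highest value was 1.41 times the lowest, compared with 2.39 times over all 5. The gap between library 1 and the next library was 0.598 of the whole log2 range, under the limit of 0.71 at which a library of 5 would be called distant. Rescaled to equal totals, POLB stood at 9.07, 14.6, 19.4, 18.8 and 15.2 in libraries 1 to 5. The steps were the same, with libraries 3 and 4 exchanged at the top. No measurement was repeated within an animal, so neighbouring values in this order cannot be separated from technical spread.

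**Figure D1:**
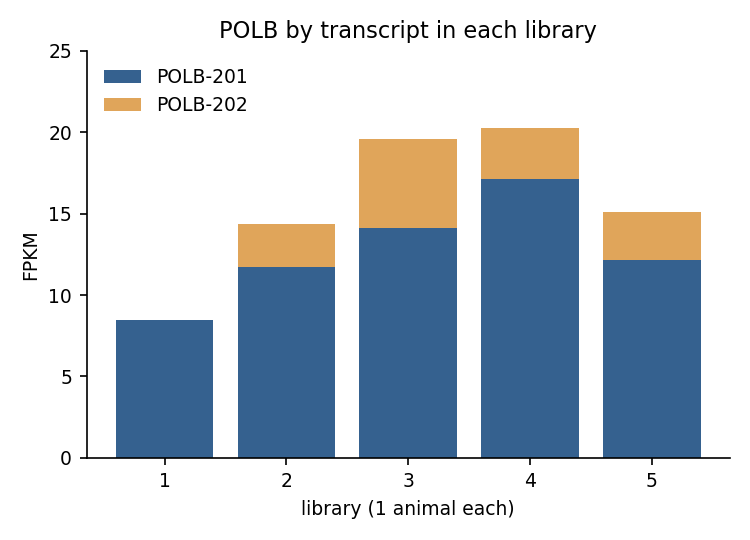
FPKM of the 2 listed POLB transcripts (stacked bars) in each of the 5 libraries, 1 animal each. Library 1 is lowest at 8.49 FPKM with POLB-202 listed at 0, and libraries 3 and 4 are highest at 19.6 and 20.3 FPKM.

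The transcripts shared the steps only in part. POLB-201 was listed at 8.49, 11.7, 14.1, 17.1 and 12.2 FPKM in libraries 1 to 5, with a mean of 12.7 ± 3.18 (SD, n = 5), and was highest in library 4. POLB-202 had the values 0, 2.63, 5.47, 3.14 and 2.97 FPKM, being listed at 0 for library 1, and was highest in library 3, where its level was 1.74 times that in library 4. The table places the gene on chromosome 27, start 37192520 and end 37217387. Because of the 0 in library 1, the gene's 1.69-fold step from library 1 to library 2 came to 1.38-fold for POLB-201 alone. POLB-201 exceeded POLB-202 in 5 of 5 libraries by a mean of 9.88 ± 2.31 FPKM (SD, n = 5), and the exact permutation test by sign flips, two-sided, gave p = 0.0625, the smallest that 5 libraries allow. How fragments were divided between the transcripts is not given in the sources used here, and a listed 0 can be a failed estimate.

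To find genes that moved with POLB, each gene's log2(FPKM + 1) values were set as deviations from its own mean, and the root mean square difference from POLB's deviations was taken over the 5 libraries. On this scale a gene equal in all libraries would stand 0.42 from POLB, and a gene was called close at no more than 0.21, which is 50% of that distance. The same was done for POLB's mirror image, its deviations with the sign turned. Of 6135 other genes with a mean of at least 1 FPKM, 146 (2.38%) were close to POLB and 62 (1.01%) were close to the mirror image. The median gene stood 0.47 from POLB and 0.48 from its mirror image. At the limit, the oxysterol-binding gene OSBPL9 lay just inside and the splicing gene USP39 just outside, at 0.208 and 0.209. POLB's 3 steps were also used alone, whatever their size. In this order lay 393 genes (6.41%), and 233 (3.8%) lay in the opposite order.

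That excess of followers over mirror genes depended on the scaling. Of the genes in either order 62.8% followed POLB in FPKM, 60.2% after median-ratio size factors and 35.8% after rescaling to equal totals (TPM), where 240 genes followed and 431 were opposite. In the same rescaling 77 genes were close to POLB and 124 to its mirror image. Relative to library 1, the median of all genes in libraries 3 and 4 moved from 0.01 to -0.12 log2 with that rescaling. POLB itself was 1.14 log2 units higher in libraries 3 and 4 than in library 1 in FPKM and 1.0 in TPM. Library 1 also weighed on the likeness. Without it, 41 of the 146 close genes were still within 50% of the distance of an even gene, a limit that fell from 0.21 to 0.104. Of all genes 241 of 6080 (3.96%) were within it.

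**Figure D2:**
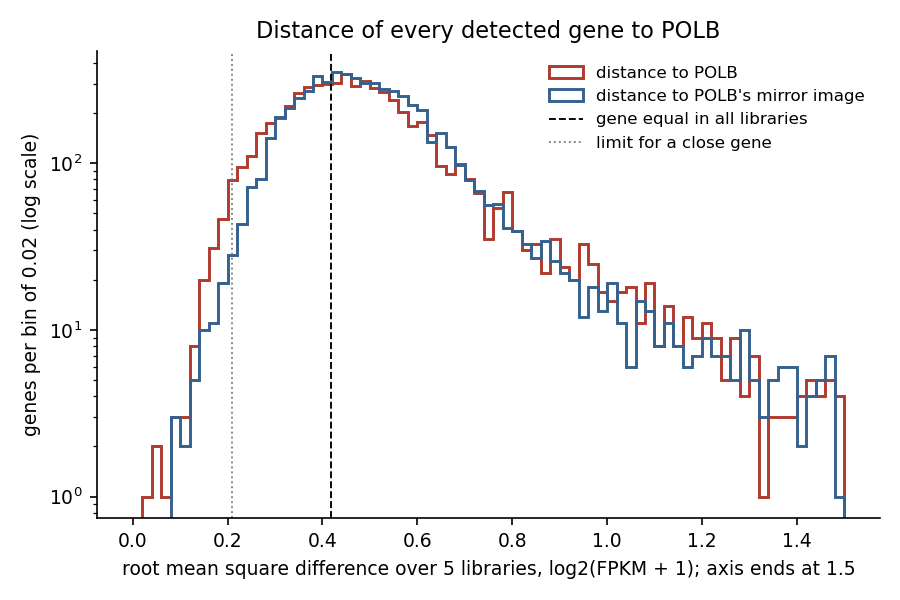
Number of genes (log scale) by root mean square distance to POLB and to its mirror image, over 5 libraries and 6135 genes in bins of 0.02. The dashed line at 0.42 marks a gene equal in all libraries, the dotted line at 0.21 the limit for a close gene, and 51 and 56 genes lie beyond the axis end at 1.5.

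The 10 named genes nearest to POLB, among 3178 with a symbol and a mean of at least 5 FPKM, all had its 3 steps. Picking genes by a small distance favours shared steps, so these are no separate result. COX6B1, a nuclear-encoded subunit of cytochrome c oxidase, was the nearest, at a distance of 0.045. It was listed at 19.2, 32.1, 40.9, 42.8 and 34.7 FPKM in libraries 1 to 5, a 2.23-fold range against 2.39-fold for POLB. RNASEH2B, a subunit of the enzyme that removes ribonucleotides from DNA, followed at a distance of 0.059. It stood at 4.13, 7.49, 10.4, 9.53 and 7.48 FPKM, lowest in library 1 and highest in library 3. RBM8A, a core protein of the exon junction complex, stood at 5.12, 9.14, 12.8, 11.4 and 9.83 FPKM, at a distance of 0.075. Each of these had library 1 alone at the bottom and libraries 3 and 4 above the rest.

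SREBF1 and SCD, which act in lipid synthesis, were both among these 10. SREBF1, a transcription factor of fatty acid and sterol synthesis, stood at 20.6, 30.5, 39.3, 39.7 and 32.2 FPKM in libraries 1 to 5, at a distance of 0.085. SCD, the desaturase that makes monounsaturated fatty acids, stood at 32.3, 44.0, 56.8, 61.3 and 43.8 FPKM, at a distance of 0.12. In both genes libraries 3 and 4 were the highest and library 1 was the lowest.

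A further pair of the 10 act in mitochondria. MRPS2, a protein of the small mitochondrial ribosomal subunit, stood at 4.0, 6.43, 8.94, 8.36 and 7.09 FPKM in libraries 1 to 5, with libraries 3 and 4 on top, and lay 0.085 from POLB. HIBADH, an enzyme of valine breakdown, stood at 4.72, 6.92, 8.97, 9.73 and 7.48 FPKM, with the same steps, and lay 0.11 from POLB. RNF7 and PSMB3 belong to protein degradation. RNF7, a RING subunit of cullin ubiquitin ligases, ran from 6.26 FPKM in library 1 to 17.4 in library 4, and PSMB3, a beta subunit of the proteasome, from 44.2 to 96.8. MOB4, a component of phosphatase and kinase complexes, ran from 9.93 FPKM in library 1 to 20.4 in library 4. These 3 lay at distances of 0.088, 0.10 and 0.11.

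The 10 genes were in POLB's order under both other scalings as well, and close to it at distances of at most 0.12. A scaling multiplies POLB and every other gene of a library by the same factor, which nearly cancels from this distance. The distances could therefore hardly change. A gene in order over all 5 libraries stays in order by the rule when 1 is left out, so the order tells nothing there. Without library 1, 9 of the 10 were close, PSMB3 being the exception at 0.113 against a limit of 0.104. The list of the nearest 10 changed more: 1 of the 10 was still among the nearest 10 without library 1, and 2 without library 3. Against POLB-201 alone, 6 of the 10 were close and 2, HIBADH and SCD, were among its nearest 10. For RNASEH2B a transcript number was missing from the table, so its sum may be partial.

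**Figure D3:**
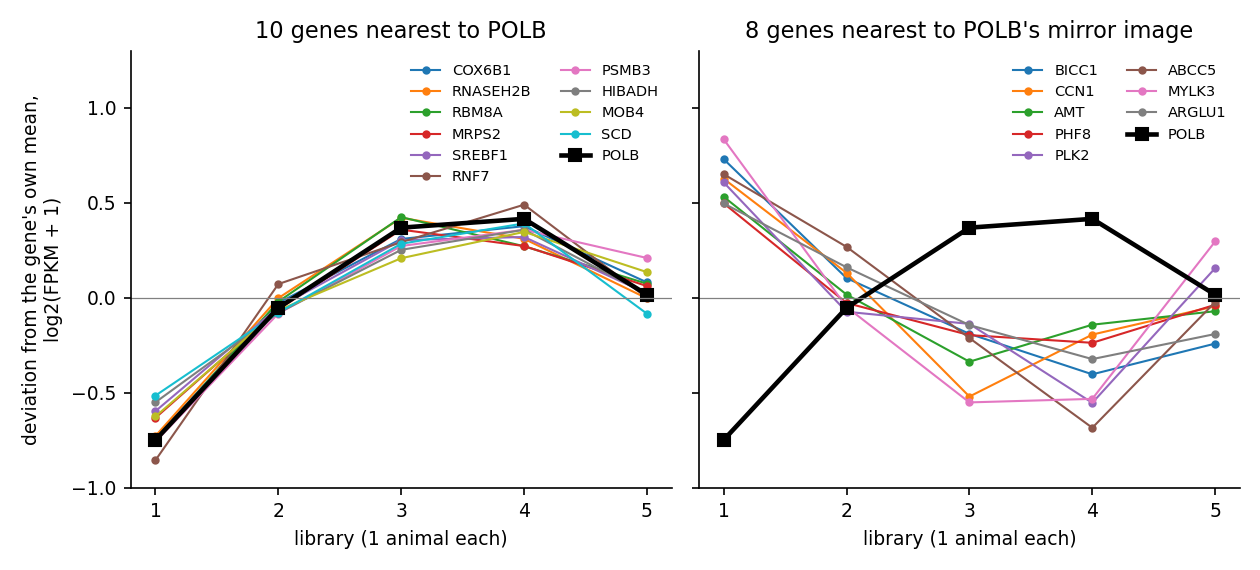
Deviation of each gene from its own mean, log2(FPKM + 1), in each library, for the 10 genes nearest to POLB (left) and the 8 nearest to its mirror image (right), with POLB in black in both panels. The left lines run with POLB from library 1 to libraries 3 and 4, while on the right library 1 is the highest point of every line except POLB's.

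POLB-201 and POLB-202 had different nearest genes. Nearest to POLB-201 were NDUFV2, a core subunit of respiratory complex I, at 0.036, the mitochondrial ribosomal gene MRPL16 at 0.055, HIBADH at 0.058, SCD at 0.060 and the ATP synthase epsilon subunit gene ATP5F1E at 0.064. NDUFV2 was listed at 111, 142, 172, 205 and 157 FPKM in libraries 1 to 5, highest in library 4 like that transcript. Nearest to POLB-202 was SERBP1, an RNA-binding protein of the ribosome, at 0.087, with 10.01, 44.1, 84.1, 47.0 and 46.8 FPKM. Library 3 was its highest and library 1 its lowest, as for POLB-202. SELENOO, TMEM120B, DPP9 and SLC35A1 were next, at 0.22 to 0.34, where an even gene would stand 0.91 from POLB-202.

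Some genes followed POLB's steps with a far wider range. PCCB, a subunit of the mitochondrial propionyl-CoA carboxylase, had the values 0.106, 18.2, 21.6, 26.5 and 18.1 FPKM. Libraries 2 to 5 lay close together, and the wide range rested on library 1. COX6A2, the muscle form of a cytochrome c oxidase subunit, stood at 18.6, 186, 283, 423 and 129 FPKM, and differed between libraries 2 to 5 as well. VDAC3, a channel of the outer mitochondrial membrane, stood at 13.7, 56.3, 195, 193 and 67.2 FPKM, a 14.2-fold range with libraries 3 and 4 far above the others. SERBP1 spanned 8.4-fold. TRPT1, a tRNA phosphotransferase, and DYNLT3, a dynein light chain, were listed at 0 in library 1 and reached 12.7 and 7.85 FPKM. VDAC3, SERBP1 and TRPT1 each lacked at least 1 transcript number.

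The 8 named genes nearest to the mirror image were all highest in library 1, and 6 of them were in the opposite order. Both traits are favoured by picking genes near the mirror image. CCN1, a secreted protein of the matrix, stood at 52.9, 37.2, 23.4, 29.5 and 32.9 FPKM in libraries 1 to 5, 0.14 from the mirror image. BICC1, an RNA-binding protein, stood at 9.01, 5.48, 4.29, 3.56 and 4.11 FPKM, at 0.13. PLK2, a polo-like kinase, ran from 37.1 FPKM in library 1 to 16.1 in library 4, and MYLK3, a kinase of the myosin regulatory light chain, from 11.6 in library 1 to 3.83 in library 3.

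The other 4 spanned 1.81- to 2.58-fold, against 2.27- to 3.03-fold for those above. ABCC5, an export pump, ran from 65.2 FPKM (library 1) to 25.2 (library 4), and ARGLU1, a splicing regulator, from 31.6 to 17.5. AMT, of the glycine cleavage system, ran from 9.49 FPKM (library 1) to 4.75 (library 3), and the histone demethylase gene PHF8 from 8.19 (library 1) to 4.53 (library 4). Their likeness to the mirror image was looser than that of the nearest genes to POLB, at 0.13 to 0.18. After rescaling to TPM 5 of the 8 were close to the mirror image, a distance from which the factor of a library does not cancel. Without library 1 none was close, at a limit of 0.104. The 6 in the opposite order stay so by the rule when a library is left out. PHF8 and ABCC5 each lacked at least 1 transcript number.

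Of the 6 genes of widest range in the opposite order, 3 rested on a single low library. RPL35A, a ribosomal protein gene, was at 1.4 FPKM in library 4 and between 29.6 and 50.3 elsewhere. ANKFY1, an endosomal protein, was listed at 0 in library 4, and CDK12, a kinase of transcription elongation, at 0 in library 3. Against these, SRSF5, a splicing factor, stood at 27.5, 18.8, 5.99, 7.67 and 22.7 FPKM in libraries 1 to 5, low in both libraries 3 and 4. TRIAP1, an inhibitor of apoptosis, stood at 13.7, 10.9, 3.81, 5.70 and 10.4 FPKM, and BOLA-NC1, a class I histocompatibility gene, at 15.3, 14, 2.75, 5.56 and 11.1. These 3 had their lowest value where POLB-202 had its highest, in library 3. RPL35A and CDK12 each lacked a transcript number, so their sums may be partial.

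POLB's partners in base excision repair differed among themselves in range and in order of libraries. Among the glycosylases 6 of 11 were listed and 4 averaged at least 1 FPKM, of which 1 was close to POLB and in its order, where 2.38% and 6.41% of all genes were. NTHL1, which removes oxidised pyrimidines, was close to POLB at 0.17 and had its steps, at 0.569, 0.885, 1.77, 1.49 and 1.14 FPKM in libraries 1 to 5. Those values are low, and NTHL1 lacked a transcript number. OGG1, the glycosylase for oxidised guanine, MUTYH and SMUG1 stood farther away, at 0.39, 0.56 and 0.69. SMUG1 spanned 2.68-fold, more than POLB, but was lowest in library 3, at 1.58 FPKM, where POLB was high. A transcript number was missing for SMUG1 as well.

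Of the 19 genes that act after the glycosylase 11 were listed and 6 averaged at least 1 FPKM, none of them close to POLB and 1 in its order, counts too small to set apart from the 2.38% and 6.41% of all genes. PARP1, the sensor of strand breaks, had POLB's steps with a smaller range, at 17.3, 20.3, 22.3, 22.3 and 20.9 FPKM, and stood 0.29 from POLB. APEX1, the endonuclease for abasic sites, was also lowest in library 1, at 11.2 FPKM, and highest in library 5, at 15.6, and APLF stood 0.33 away. PARP2 was listed at 0 in library 1 and at 3.15 to 4.59 FPKM in the others, and APTX, which repairs abortive ligation ends, was lowest in library 3 at 0.850 FPKM. PARP2 and APTX each lacked a transcript number, so these values may be partial. The median difference of libraries 3 and 4 from library 1 was -0.11 log2 for the glycosylases and 0.33 for the later steps, against 0.01 for all genes. The glycosylases' value rested on 4 genes and turned to 0.06 without library 3.

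Of 25 genes of other DNA polymerases 15 were listed and 8 averaged at least 1 FPKM. None was close to POLB and 1 was in its order, which is near the 2.38% and 6.41% of all genes. POLD4 and POLD2, accessory subunits of the replicative polymerase delta, were nearest, at 0.29 and 0.30, followed by the catalytic subunit gene POLD1 at 0.37. POLD4 had POLB's steps, at 1.85, 1.98, 2.5, 2.75 and 2.43 FPKM. Both POLD4 and POLD2 lacked transcript numbers. MAD2L2 and POLE4 were farthest, at 0.50 and 0.54.

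In mismatch, nucleotide excision and double-strand break repair 21 of 36 genes were listed and 18 averaged at least 1 FPKM. None was close to POLB and 1 had its steps, near the 2.38% and 6.41% of all genes. That gene was XPC, a damage sensor listed at 0 in library 1 and at 2.65 to 4.20 FPKM elsewhere. RPA2 and RPA1, subunits of the single-strand binding protein, and the damage-binding gene DDB1 stood nearest, at 0.29, 0.30 and 0.30, while the checkpoint kinase gene ATM and the strand break gene RAD50 were farthest, at 0.52 and 0.55. Of 13 factors known to act on the POLB protein or promoter 8 were listed, 6 averaged at least 1 FPKM, and none was close or in order, again near those shares. The CREB family gene ATF1 was nearest at 0.30, followed by PRMT1 and USP47 at 0.35, with ATF2 and CREM at 0.48 and 0.62. CREB1 was listed at 5.24 FPKM in library 1 and at 5.57 to 6.54 in the others.

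Proliferation and apoptosis, which the title names, were covered by lists of their own. Of 18 proliferation genes 12 were listed and 8 averaged at least 1 FPKM, and of 20 apoptosis genes 8 were listed and 5 did. None of these 13 was close to POLB, in its order or in the opposite order, where 2.38%, 6.41% and 3.8% of all genes were, so these counts lie near the background. Nearest among the proliferation genes were the replication helicase gene MCM6 at 0.31, CCNE1 at 0.33 and CDK4 at 0.41, and farthest were MCM2 at 0.49 and MCM5 at 0.71. Among the apoptosis genes CYCS, which encodes the respiratory protein cytochrome c, stood at 0.30, BAD at 0.33 and BCL2L1 at 0.53. APAF1 and CASP8 were farthest, at 0.83 and 0.84, and CASP8 was lowest in library 3, at 0.400 FPKM. APAF1, CASP8, BCL2L1, MCM5 and MCM6 lacked transcript numbers, so these values may be partial.

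The nuclear genes of the respiratory chain and ATP synthase stood at a median distance of 0.27 from POLB, against 0.47 for all genes. Of 37 symbols 24 were listed and 23 averaged at least 1 FPKM, 3 of them close and 8 in POLB's order, with none in the opposite order. Of all genes 2.38% were close, 6.41% in order and 3.8% in the opposite order. All 23 were higher in the mean of libraries 3 and 4 than in library 1, by a median of 0.59 log2 in FPKM and 0.43 in TPM. NDUFV2, the succinate dehydrogenase gene SDHB and the complex I gene NDUFB5 were the close members. SDHB stood at 128, 158, 197, 208 and 190 FPKM in libraries 1 to 5, with library 1 lowest and libraries 3 and 4 highest. SDHA and COX6A2 were farthest, at 0.32 and 1.13, COX6A2 with a wider range than POLB. Earlier results on these libraries had already shown such genes low in library 1, so the list is no independent support.

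Among the mitochondrially encoded genes POLB's steps were not found in FPKM. Of 12 listed 8 averaged at least 1 FPKM, none close and none in POLB's order (2.38% and 6.41% of all genes), with COX1, ND1 and COX2 at 0.35, 0.38 and 0.41 and ND5 and ND6 farthest at 0.56 and 0.74. COX1 and COX2 were high in library 4 alone. The median of these genes in libraries 3 and 4 against library 1 was 0.14 log2 in FPKM and -0.02 in TPM, so its direction turned with the scaling.

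In the fast sarcomere list 6 of 13 were listed, of which 2 were close to POLB and 2 in its order, where 2.38% and 6.41% of all genes were. MYOZ1, a Z-disc protein, and MYLPF, the fast regulatory light chain, were the close members, at 0.18 and 0.20. MYLPF stood at 1961, 2499, 2749, 3342 and 2491 FPKM, and MYOZ1 at 417, 611, 643, 760 and 691, both lowest in library 1 and highest in library 4. MYL1 had POLB's steps at 0.26, while TNNT3 and TPM1 stood at 0.45 and 0.59. In the slow list 9 of 10 were listed, 7 averaged at least 1 FPKM and none was close. TNNC1, MYL2 and ATP2A2 were nearest at 0.29, 0.34 and 0.38, and TNNT1 and TNNI1 farthest at 0.50 and 0.60. After rescaling to TPM no member of either list was close. Among muscle transcription factors and differentiation genes 8 of 15 were listed, 6 averaged at least 1 FPKM and none was close. Only MYF6, a myogenic factor of mature fibres, was in the opposite order, at 6.48, 4.33, 3.1, 2.75 and 4.31 FPKM, where 3.8% of all genes were. It alone was close to POLB's mirror image, at 0.096, where 1.01% of all genes were. That is nearer than the 8 named mirror genes, but MYF6 averaged 4.19 FPKM, under the 5 FPKM set for naming. MEF2D, SIX4 and MEF2C stood at 0.32 to 0.38 from POLB and the creatine kinase gene CKM at 1.36.

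Families taken by their symbols, a grouping made after values had been seen, were counted next. The 6 families of the respiratory chain, mitochondrial ribosome and proteasome held 44 of the 393 genes in POLB's order, and 112 of all 6135 genes compared. Except for SDHA and SDHB, they hold all genes of the respiratory list above that averaged at least 1 FPKM, so the counts overlap. Of 23 NDUF genes of complex I 13 were in POLB's order, as were 4 of 10 nuclear COX genes, 6 of 14 ATP5 genes and 2 of 5 UQCR genes of complex III, where 6.41% of all genes were. Of 37 mitochondrial ribosomal genes 11 were in order and 7 close, and of 23 proteasome genes 8 were in order and 3 close, where 2.38% of all genes were close. None of the members of these 6 families was in the opposite order. In TPM, where 3.91% of all genes were in order and 7.02% opposite, the counts in order were 11 NDUF, 4 COX, 3 ATP5, 2 UQCR, 10 mitochondrial ribosomal and 5 proteasome genes, with 1 proteasome gene opposite.

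Within the families the nearest members in order were spread over several complexes. NDUFA5 and NDUFS7 of complex I stood at 0.13 and 0.14, NDUFA5 with 58.7, 79.6, 108, 114 and 102 FPKM in libraries 1 to 5. PSMB5, a catalytic proteasome subunit, stood at 23.3, 34.0, 38.4, 43.6 and 36.0 FPKM, at a distance of 0.14, and PSMA4 at 0.20. MRPS18B, after MRPS2, stood at 7.68, 9.19, 13.6, 15.0 and 11.6 FPKM, at 0.16. In each of these library 1 was lowest and libraries 3 and 4 were highest. COX7B, UQCR11 and ATP5MG followed at 0.20, 0.20 and 0.18.

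The remaining families were counted in the same way. Of 46 cytosolic ribosomal genes 43 were higher in libraries 3 and 4 than in library 1, as were 3109 of all 6135, and their median was 0.60 log2. RPL22L1, RPL3L and RPL22 were close to POLB, 3 of 46 against 2.38% of all genes, and RPL3L alone was in its order, 1 of 46 against 6.41%. Their reads may be shared with near-identical copies, so these values are uncertain. Of 14 SLC25 genes of mitochondrial carriers 4 were in order, a share near that of the mitochondrial ribosome, and of 25 EIF genes of translation initiation 3. Of 70 zinc finger genes 2 were in order and of 26 USP genes 1. The UBE2, SRSF and phosphatase regulator families held none in order. Of 16 KMT and KDM genes, which write and erase histone methylation, none was in order and 3 were higher in libraries 3 and 4 than in library 1, with a median of -0.21 log2 in FPKM and -0.33 in TPM. Of 15 collagen genes none was in order, and their median was -0.32 log2 against library 1 but 0.20 against libraries 2 and 5 once library 1 was left out. Relative to all genes the NDUF median was 0.63 log2 in FPKM and 0.61 in TPM.

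Without library 1 the families were compared on the remaining step, libraries 2 and 5 below libraries 3 and 4, an alternative added after seeing the data. On it 17 of 23 NDUF genes, 13 of 14 ATP5 genes, 7 of 10 nuclear COX genes and 4 of 5 UQCR genes were in order, where 20.4% of all genes were. For the mitochondrial ribosome 15 of 37 and for the proteasome 8 of 23 were in order (34.8%). The SLC25 carriers, with 6 of 14, and the collagens, with 5 of 15, had similar shares. A gene in order over all 5 libraries stays in order by the rule, so these counts are no separate result for such genes. They carry over 13 NDUF, 6 ATP5, 4 COX, 2 UQCR, 11 mitochondrial ribosomal, 8 proteasome and 4 SLC25 genes, but no collagen gene. The 20.4% of all genes holds carried-over genes too. Of the 16 families 4 had a negative median on this step, the lowest being that of the KMT and KDM genes at -0.23 log2.

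**Figure D4:**
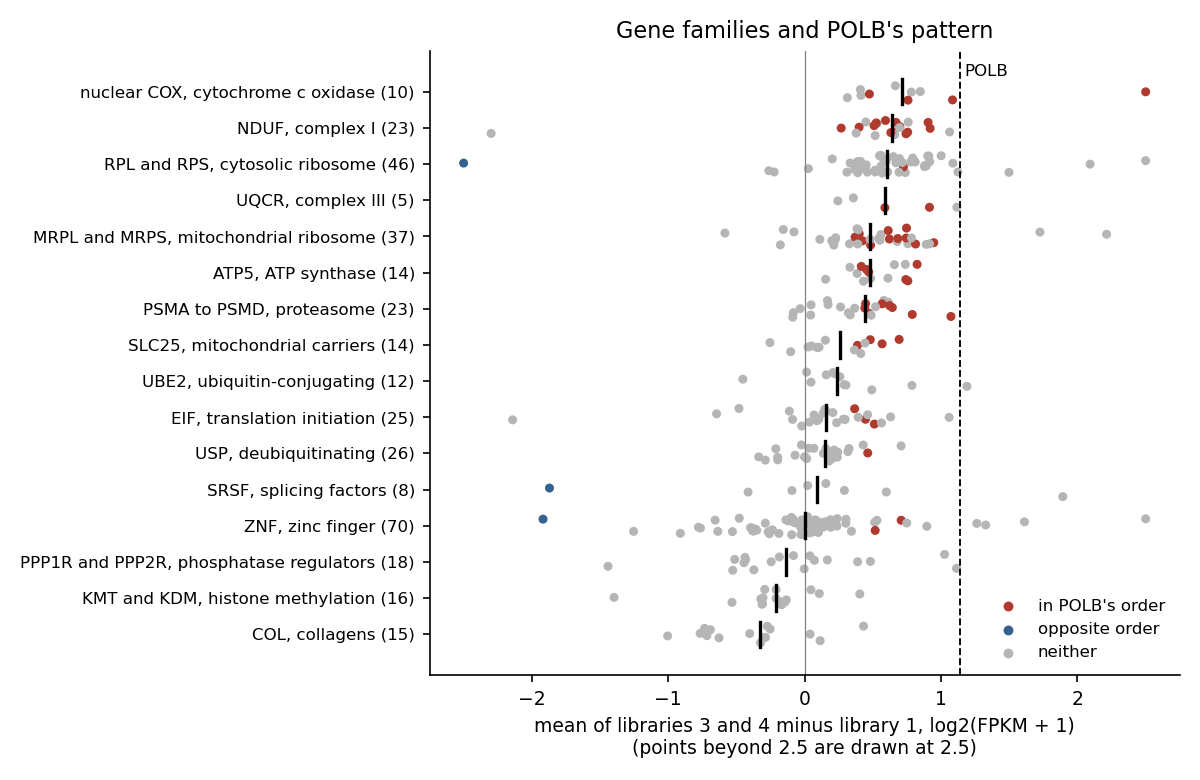
Mean of libraries 3 and 4 minus library 1, log2(FPKM + 1), for each gene (points) of 16 families, with the family median (bar), the number of genes in brackets and POLB (dashed line, 1.14). Red points are in POLB's order, and the medians of the respiratory chain, mitochondrial ribosome and proteasome families run from 0.44 to 0.71.

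The followers were also shorter genes. The median span from start to end in the table's coordinates was 16.0 kb for genes in POLB's order, 31.4 kb for all genes and 56.7 kb for those in the opposite order. In 5 equal bins of span, the share in POLB's order was 8.39% for the shortest, 9.62%, 6.19%, 4.73% and 3.1% for the longest, and the share in the opposite order 2.77%, 1.96%, 3.83%, 4.81% and 5.62%. In TPM the shortest and the longest bin held 5.78% and 1.71% in order, and 3.66% and 11.1% in the opposite order. Followers were more abundant as well, with a median of 11.8 FPKM against 6.38 for all genes and 5.11 for the opposite order. The part of gene length or RNA quality in POLB's own pattern was not tested.

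The genes around POLB on chromosome 27 had differing patterns. Of the 5 named genes on either side, 8 averaged at least 1 FPKM, of which 2 were in POLB's order, against 6.41% of all genes, and none was close, against 2.38%. VDAC3, 20.2 kb away at higher coordinates, had POLB's steps with the wider range given above, and stood 0.96 from it. GOLGA7, a Golgi protein gene 756 kb away at lower coordinates, also had the steps, at 3.24, 4.84, 12, 11 and 9.71 FPKM. SMIM19, at 151 kb, ran otherwise, from 27 FPKM in library 1 to 10.4 in library 4. KAT6A, a histone acetyltransferase gene, HOOK3, GPAT4 and RNF170 varied by at most 1.54-fold, and IDO1, an enzyme of tryptophan breakdown, was highest in library 3 and lowest in library 4. IKBKB, 13.3 kb away, and SLC20A2, at 36.1 kb, averaged under 1 FPKM. With the highest transcript of each gene in place of the sum, 1 of these neighbours was in order.

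**Figure D5:**
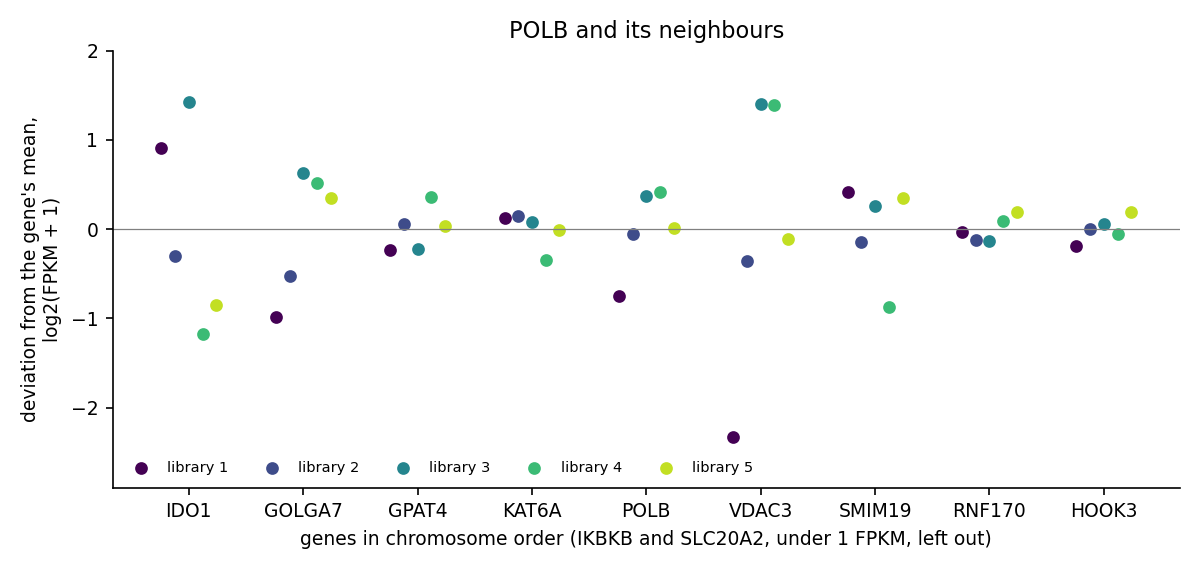
Deviation from the gene's own mean, log2(FPKM + 1), in each library for POLB and the 8 detected named genes around it in chromosome order. VDAC3 and GOLGA7 share POLB's steps, with library 1 lowest, while the other 6 do not.

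Markers of other cells did not run in POLB's order. In none of 9 marker lists was the summed level in that order or the opposite one. Fibroblast and matrix markers, 5 listed of 8, summed to 1226, 605, 828, 1068 and 674 FPKM over libraries 1 to 5, high in both the lowest and the highest library of POLB. Pericyte and smooth muscle markers, 5 of 7, were highest in library 1 at 88.7 FPKM and between 36.5 and 70.1 elsewhere. Leukocyte markers, 4 of 8, stood at 206 FPKM in library 1 and 122 to 140 elsewhere, nearly all of it CD74, with CD3E under 1 FPKM. Satellite cell markers, 3 of 5, stood at 25.5 FPKM in library 1 and 11.6 to 19.1 elsewhere.

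The remaining marker lists were more even or rested on few genes. Endothelial markers, 7 of 8, summed to 103 to 117 FPKM and nerve and Schwann cell markers, 4 of 6, to 41.8 to 58.0. Adipocyte markers, 2 of 7, summed to 32.9 to 65.1 FPKM, nearly all LPL, and the red cell gene HBB, 1 of 5, averaged 1.31 ± 1.21 FPKM (SD, n = 5). No listed marker was at 0 in all libraries. The part of these cells in POLB's low value in library 1 was not tested, and in bulk tissue fewer cells of a type and less RNA per cell cannot be told apart.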

How the data were processed

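RNA was sequenced from 5 longissimus dorsi samples, 1 library per animal. The deposited values are FPKM per transcript and library, made by the authors, per the file headers. The submitters' processing notes list HTSeq 0.6.0, DESeq2 1.10.1 and, as build, UMD3.1, none with a role. The aligner and the FPKM program are not given in the sources used here. POLB overlapped its ARS-UCD2.0 position, so coordinates are given as the table has them, with no build claimed. Transcripts were summed per gene and analysed as log2(FPKM + 1) with Python 3.11.15, numpy 2.4.6, pandas 2.3.3 and matplotlib 3.10.9. With 1 group of 5 libraries, too few for a correlation, likeness was a distance and carries no test.

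The named genes were those of at least 5 FPKM with a symbol: the 10 nearest to POLB, 8 nearest to its mirror image, 6 of widest range in each order, and 5 nearest to each transcript. Added to these were 5 genes with a symbol on either side of POLB, whatever their level, and in each list the 3 nearest and 2 farthest of those averaging at least 1 FPKM. POLB, the 12 gene lists and the 9 marker lists were chosen with earlier results of these data known. Genes named outside this rule, such as OSBPL9, USP39, CREB1 and the family members, were chosen after their values were seen. Of 230 list symbols 140 were listed. The table holds only part of the genes, and those without a row were not analysed here. The distance and order rules were tested on simulated data. Alternatives were other pseudocounts, filters, scalings, distances and transcripts, and leaving out each library.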

Additional observations from a re-analysis of the deposited data

Results flagged for a closer look

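Among 120 named genes and transcripts, 15 had 1 library far from the other 4, by a gap in log2(FPKM + 1) above 0.71 of the whole range. Chance alone flags about 1 in 20 groups, a rate that does not hold for genes chosen by their pattern over the libraries. PCCB, TRPT1, DYNLT3, RPL35A, ANKFY1 and CDK12 were chosen for a wide range, TMEM120B for likeness to POLB-202 and PHF8 for likeness to POLB's mirror image.

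Library 1 was the distant library for 7 of them. PCCB (gap ratio 0.886), DYNLT3 (0.844), PARP2 (0.826), TRPT1 (0.738), TMEM120B (0.726) and POLD2 (0.716) were low there, DYNLT3, PARP2 and TRPT1 being listed at 0. PHF8 (0.715) was high there, at 8.19 FPKM against 4.53 to 5.39.

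Library 4 was distant for 4 genes: ANKFY1 (0.955), listed at 0, and RPL35A (0.831) were low, and the mitochondrial genes COX1 (0.854) and COX2 (0.816) were high. Library 3 was low for SMUG1 (0.952) and for CDK12 (0.91), the latter listed at 0. MCM5 (0.722) was listed at 0 in library 2, and ND5 (0.81) was low in library 5, at 260 FPKM against 444 to 503. POLB and its transcripts met no such limit.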

How the results depend on the processing

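No paired analysis was possible because all libraries form 1 group. Depth is unknown, and each animal was measured once. With TPM scaling 77 genes were close to POLB, 124 to its mirror image, 240 in its order and 431 opposite. With POLB-201 alone 255 and 100 genes were close, and of the 10 nearest genes 6 were close, 2 among the nearest 10 and 4 among the nearest 100. With deviations scaled to the same SD 439 genes were close and 4 of the 10 nearest remained. At a mean of at least 5 FPKM 22 genes were close to the mirror image and 118 opposite, and with no minimum 99 and 354. With the highest transcript of each gene 1 neighbour was in order. Leaving out each library gave 172 to 318 genes close, 112 to 212 close to the mirror image, 645 to 1242 in order and 458 to 914 opposite, larger partly because 4 libraries meet an order more easily. It gave 1 to 7 of the 10 nearest, and a highest to lowest ratio for POLB of 1.41 to 2.39. The glycosylase median of libraries 3 and 4 against library 1 turned to 0.10 with no minimum, and ran from -0.11 to 0.18 with a library left out, 0.06 without library 3. Without library 1 the reference is libraries 2 and 5. That of the mitochondrially encoded genes turned to -0.017 in TPM and -0.0096 with no minimum, and ran from -0.090 (without library 4) to 0.48. That of muscle transcription factors and differentiation genes turned to -0.028 with no minimum, was -0.10 without library 4, and ran from -0.22 to 0.30. Where no construction is named, the cause was not tested.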
